A study of Mus musculus and Rattus norvegicus with 28 samples.

Results

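The transcripts of 9 interferon response genes were followed in cardiomyocytes isolated around birth. The genes were Isg15, Ifit1, Ifit2, Ifit3 and Rsad2, whose products act in antiviral defence, and Irf1, Irf7, Irf9 and Stat2, whose products are transcription factors of the same response. They were chosen by name, and they make up 9 of the 55450 genes in the mouse tables and 9 of the 32623 genes in the rat tables. Left ventricle cardiomyocytes came from C57BL/6 mice of both sexes at embryonic day 18.5 (E18.5) and at postnatal days 1 (P1), 3 (P3) and 7 (P7), with no allele or treatment added. RNA-seq was done on 2 libraries per age, and ATAC-seq, which uses the Tn5 transposase to mark open chromatin, on 2 further libraries per age. Left ventricle cardiomyocytes of Sprague Dawley rats at P1 were cultured and treated one day after plating with 100 nM trichostatin A (TSA), an inhibitor of histone deacetylases, or with the solvent DMSO, with 3 RNA-seq libraries each. The hearts were dissociated and the cells pre-plated to take away cells that attach quickly, and how many animals went into a library is not given in the sources used here.

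Interferons are secreted signals that cells release when their sensors detect foreign nucleic acid. Type I interferons bind the receptor pair Ifnar1 and Ifnar2, whose kinases phosphorylate Stat2, which joins Irf9 in a complex named ISGF3 that enters the nucleus and binds a DNA element called the interferon-stimulated response element. Interferon gamma acts at the gamma activated site, and induces Irf1 in this way. Irf7 is the factor that amplifies interferon production, and many cells keep a low level of these transcripts without infection.

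Expression was read as FPKM, the fragments of a gene scaled to the length of its transcripts and to the size of the library, which allows levels of different genes to be set side by side. Differences are given as log2(FPKM + 1), between group means, with the standard error (SE) or the 95% confidence interval of limma's moderated fit. A gene was called when its two-sided p, adjusted by Benjamini-Hochberg over every gene tested, was under 0.05 and the difference exceeded 1 in either direction. Adding 1 to each value makes the difference of low genes smaller than the ratio of their FPKM. The 9 genes passed the filter of 1 FPKM in at least 2 libraries in mouse, among 13979 genes, and 6 of them passed it in at least 3 libraries in rat, among 13625 genes. The libraries held about 29300000 to 37500000 aligned reads in mouse and 28200000 to 38500000 in rat, and the labels do not say whether replicates came from separate litters, so a p measures the spread between these libraries only.

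The labelled cell type was checked against defining genes, because the summed levels of such genes moved with age. The summed level of 10 cardiomyocyte markers was 26139 and 33941 FPKM (E18.5), 14027 and 22500 (P1), 9330 and 7719 (P3) and 2476 and 1145 (P7), with 10 of 10 lower at P7. The sum of 8 fibroblast markers was 442 and 432 FPKM at E18.5 and 2907 and 3628 at P7, with 8 of 8 higher. For 8 macrophage markers the sum ran from 44.7 to 48.9 FPKM at E18.5 and from 109.6 to 186 at the later ages. Most of that sum after birth was Lyz2 (9.45 and 10.3 FPKM at E18.5, 75.7 to 135 later); at P7 1 of 8 was higher, Lyz2, and 1 lower, C1qb (-1.53). The sum ran for 7 endothelial markers from 206 to 485 over all ages. Red cell markers were abundant at E18.5 alone, where 3 genes summed to 18212 and 22630 FPKM, against 3.18 to 25.3 after birth. Every difference from E18.5 given below moved beside these values, as did those from P1 and P3 to P7. The part of these markers in the results was not tested. Less RNA of a kind per cell and fewer cells of that kind cannot be told apart in such libraries.

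The promoters of the 9 genes were read for the letters of both elements, since these are the sequences through which the pathway acts. The core of the interferon-stimulated response element was searched as GAAANNGAAA and the gamma activated site as TTCNNNGAA, on both strands, in RefSeq windows of assembly GRCm38.p6 that run from 250 bases before a start to 50 bases after it. The 9 genes matched 12 windows. The first element was found in 5 genes, Isg15, Ifit1, Ifit3, Stat2 and Rsad2, and the second in Irf1 and Ifit2, while the windows of Irf7 and Irf9 held neither. Of 32851 windows in the table, 3.44% held the first and 8.3% the second. Counted by gene, 3.99% and 9.55% of 27025 genes held them in any window. Both motifs can overlap themselves, and a match is a description of letters, not of binding. The 250 bases before the start are given for the 5 genes with the first element and for Irf1, each 5′ to 3′ in the sense of the gene, with the matched letters in capitals.
Isg15, chr4:156200819-156201068, minus strand: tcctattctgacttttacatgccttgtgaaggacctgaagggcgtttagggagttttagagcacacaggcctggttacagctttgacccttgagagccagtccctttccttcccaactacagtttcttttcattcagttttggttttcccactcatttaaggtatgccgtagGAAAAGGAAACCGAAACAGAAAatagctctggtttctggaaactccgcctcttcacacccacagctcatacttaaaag
Ifit1, chr19:34640639-34640888, plus strand: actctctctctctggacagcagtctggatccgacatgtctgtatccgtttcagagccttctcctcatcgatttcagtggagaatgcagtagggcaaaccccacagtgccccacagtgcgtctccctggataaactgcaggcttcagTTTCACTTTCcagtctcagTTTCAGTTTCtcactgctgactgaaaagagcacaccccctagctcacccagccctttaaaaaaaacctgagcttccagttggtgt
Ifit3, chr19:34583279-34583528, plus strand: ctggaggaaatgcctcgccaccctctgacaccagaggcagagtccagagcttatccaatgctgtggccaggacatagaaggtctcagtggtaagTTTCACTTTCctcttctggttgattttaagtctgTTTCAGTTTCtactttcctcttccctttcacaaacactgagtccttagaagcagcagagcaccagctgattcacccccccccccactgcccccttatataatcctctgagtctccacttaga
Rsad2, chr12:26456453-26456702, minus strand: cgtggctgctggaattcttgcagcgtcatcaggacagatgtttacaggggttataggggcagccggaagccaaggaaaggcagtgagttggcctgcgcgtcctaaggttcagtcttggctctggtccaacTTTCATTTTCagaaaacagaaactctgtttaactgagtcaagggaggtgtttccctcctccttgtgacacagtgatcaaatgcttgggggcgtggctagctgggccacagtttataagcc
Stat2, chr10:128270248-128270497, plus strand: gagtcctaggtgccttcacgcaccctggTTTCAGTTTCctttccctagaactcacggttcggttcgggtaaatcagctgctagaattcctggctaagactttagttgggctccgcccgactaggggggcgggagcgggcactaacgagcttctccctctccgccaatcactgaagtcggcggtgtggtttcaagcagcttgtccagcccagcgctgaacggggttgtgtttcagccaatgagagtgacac
Irf1, chr11:53769764-53770013, plus strand: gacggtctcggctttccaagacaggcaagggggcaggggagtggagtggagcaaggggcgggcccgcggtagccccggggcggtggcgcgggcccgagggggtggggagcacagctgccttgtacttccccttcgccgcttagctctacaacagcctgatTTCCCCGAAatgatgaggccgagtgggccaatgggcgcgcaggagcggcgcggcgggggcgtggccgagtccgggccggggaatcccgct

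Isg15 holds 3 overlapping matches, from 78 to 57 bases before its start. The promoters of Ifit1 and Ifit3 each hold 2 matches with the same letters, TTTCACTTTC and TTTCAGTTTC, at 104 to 95 and 85 to 76 bases before the start of Ifit1 and at 156 to 147 and 122 to 113 before that of Ifit3. Rsad2 has a single match at 120 to 111 bases and Stat2 one at 222 to 213 bases. The site in Irf1 lies at 90 to 82 bases before its start, and the one in Ifit2, which is not printed, at 241 to 233.

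Isg15 codes for a ubiquitin-like protein that is secreted or attached to other proteins during the response, and its gene lies at chr4:156199424-156200818 on the minus strand in mm10, the build of all gene positions given here. Its level was 72.9 and 59.4 FPKM (E18.5), 109.8 and 132 (P1), 175 and 118 (P3) and 249 and 288 (P7). The E18.5 libraries lay below all others and the P7 libraries above all others, while P1 and P3 overlapped. At P7 the mean was 269 ± 27.9 FPKM (SD, n = 2) against 66.1 ± 9.56 at E18.5, a log2 difference of 2.01 (SE 0.21), adjusted p = 0.000114. Isg15 was also higher at P3 than at E18.5, by 1.12 (adjusted p = 0.00285), but the difference was 0.97 without E18.5 replicate 2, 0.84 without P3 replicate 1 and 0.97 after scaling by size factors (the median ratio of a library to the geometric mean of all), which ends the call. At P1 the difference of 0.86 had an adjusted p of 0.0116 and lay under the fold threshold. Over the 16 alternatives run, that difference ranged from 0.72 to 1.10, so it did not always stay under it. From P1 to P7 it rose by 1.15 (adjusted p = 0.00689), a call that was lost without P7 replicate 2 (adjusted p = 0.0570).

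Ifit1 codes for a protein that binds the 5′ end of foreign RNA, at chr19:34640871-34650009 on the plus strand. Its level was 20.0 and 15.3 FPKM (E18.5), 33.0 and 44.5 (P1), 40.9 and 23.1 (P3) and 47.2 and 57.6 (P7). Both E18.5 libraries lay below the other 6, and the values at P1 and P3 overlapped. The rise to P7 was 1.52 (SE 0.27; adjusted p = 0.00202), or 2.88-fold on the FPKM + 1 scale. The rise to P1 was 1.09 (adjusted p = 0.0147), and that call ended without E18.5 replicate 2 (adjusted p = 0.0934), without P1 replicate 2 (0.0786), without the filter on low values (0.0592) and with size factors, where the difference was 0.95. Between P1 and P7 the difference of 0.43 was within the replicate spread (adjusted p = 0.340).

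Ifit3, a partner of Ifit1 in binding RNA, lies at chr19:34583531-34588731 on the plus strand. It was at 34.3 and 16.8 FPKM (E18.5), 13.0 and 21.1 (P1), 37.5 and 22.9 (P3) and 75.3 and 106 (P7). The E18.5 values overlapped those of P1 and of P3, P1 lay below P3, and both P7 libraries stood above all others. The mean of 90.7 ± 21.8 FPKM at P7 was higher than 25.6 ± 12.4 at E18.5 by 1.85 (SE 0.38; adjusted p = 0.00381) and higher than 17.0 ± 5.66 at P1 by 2.36 (adjusted p = 0.00434). Against P3 the difference was 1.57, with an adjusted p of 0.0554. The rise to P7 from E18.5 and from P1 held in each of the 16 alternatives run.

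Ifit2, which codes for another RNA-binding protein of the family, lies at chr19:34550694-34576419 on the plus strand. It was at 14.7 and 9.56 FPKM (E18.5), 7.70 and 8.32 (P1), 8.49 and 7.37 (P3) and 9.95 and 12.8 (P7). Both E18.5 libraries exceeded all P1 and P3 libraries, and the P7 values fell between the E18.5 values. No comparison called it: the difference was -0.52 at P1 (adjusted p = 0.0886), -0.53 at P3 (0.0728) and -0.06 at P7, where the 95% interval ran from -0.56 to 0.43 and the sign changed with TPM.

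Rsad2 codes for viperin, an enzyme that makes a chain-terminating nucleotide, and lies at chr12:26442746-26456452 on the minus strand. Its level was 51.0 and 28.0 FPKM (E18.5), 3.36 and 5.27 (P1), 5.21 and 3.63 (P3) and 12.7 and 18.5 (P7). P1 and P3 overlapped at the lowest levels, both P7 libraries lay above them, and both E18.5 libraries lay above P7. The fall from E18.5 was -2.89 at P1 (SE 0.32; adjusted p = 0.000431), -2.86 at P3 (adjusted p = 0.000308) and -1.25 at P7 (adjusted p = 0.0116). The call at P7 was lost without E18.5 replicate 1 (difference -0.83, adjusted p = 0.0757) and without P7 replicate 1 (-0.99, adjusted p = 0.0730). From P1 to P7 Rsad2 rose by 1.65 (adjusted p = 0.0101), a call lost without P1 replicate 1 (0.0503), without P7 replicate 2 (0.0786) and without the filter (0.0621). From P3 to P7 it rose by 1.61 (adjusted p = 0.0302), and here adjusted p was 0.103 without P3 replicate 1, 0.161 without P3 replicate 2, 0.210 without P7 replicate 2 and 0.157 without the filter.

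**Figure D1:**
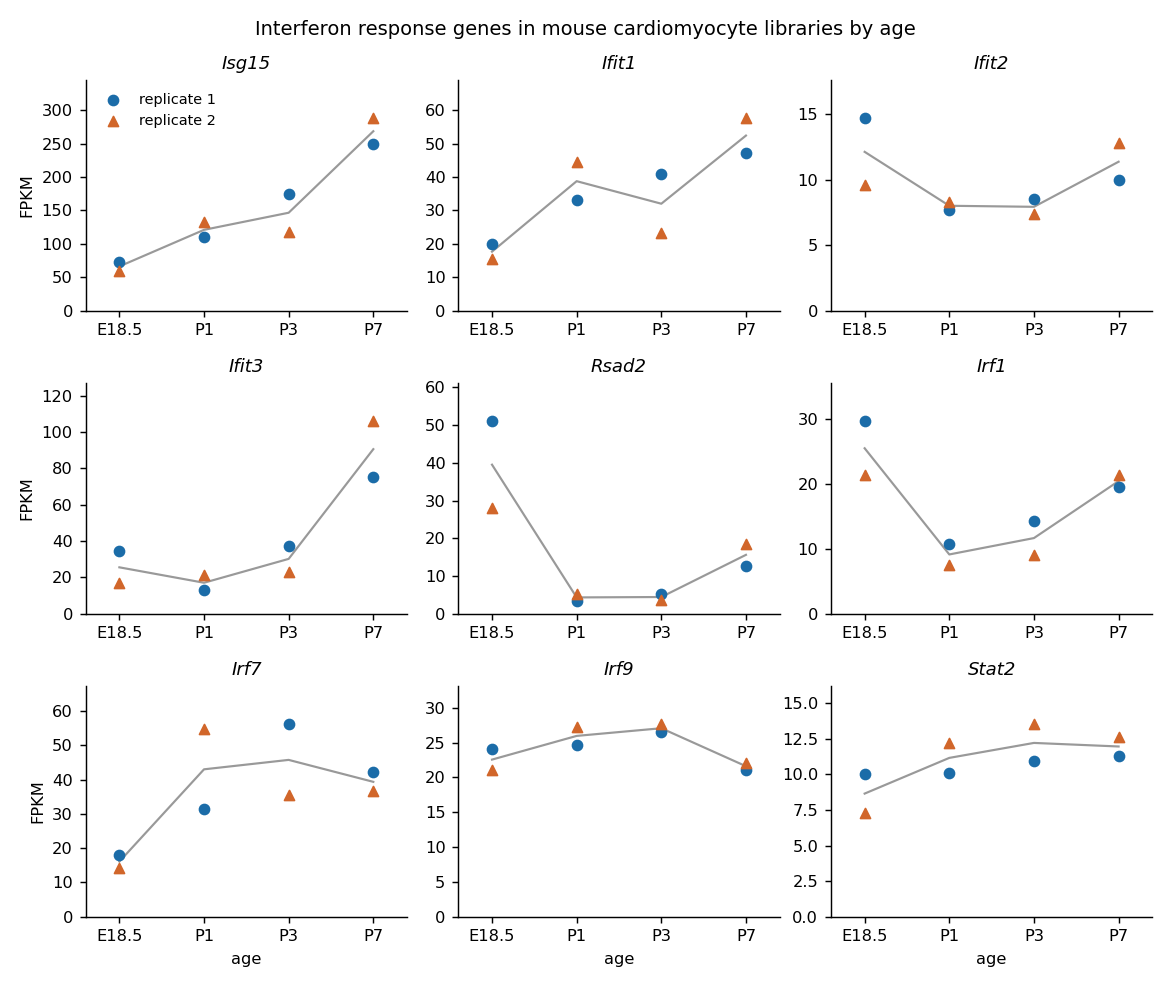
FPKM of the 9 interferon response genes in each mouse RNA-seq library at E18.5, P1, P3 and P7, with points for the 2 libraries and a line through the means. Isg15 goes from 59.4 and 72.9 FPKM at E18.5 to 249 and 288 at P7, while Rsad2 goes from 28.0 and 51.0 to between 3.36 and 5.27 at P1 and reaches 12.7 and 18.5 at P7.

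Among the transcription factors, Irf1 had a pattern in which P1 was lowest. Irf1 drives antigen presentation and other genes of the gamma response, and lies at chr11:53770014-53778374 on the plus strand. It was at 29.6 and 21.3 FPKM (E18.5), 10.7 and 7.53 (P1), 14.2 and 9.07 (P3) and 19.5 and 21.3 (P7). P1 and P3 overlapped, both lay below E18.5 and P7, and E18.5 and P7 met at 21.3. The fall to P1 was -1.39 (SE 0.25; adjusted p = 0.00361) and to P3 -1.08 (adjusted p = 0.00822). The call at P3 ended with TPM (-0.87), without E18.5 replicate 1 (adjusted p = 0.0546) and without P3 replicate 2 (0.0571). From P1 to P7 Irf1 rose by 1.10 (adjusted p = 0.0193), a call lost without P1 replicate 2 (0.122), without P7 replicate 1 (0.0613), without P7 replicate 2 (0.113), without the filter (0.0866) and with limma-voom (0.0530). At P7 the difference from E18.5 was -0.29 (95% interval -0.87 to 0.29).

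Irf7, at chr7:141262706-141266481 on the minus strand, went the opposite way at P1. It was at 18.1 and 14.1 FPKM (E18.5), 31.3 and 54.7 (P1), 56.1 and 35.4 (P3) and 42.1 and 36.6 (P7). All 6 later libraries lay above E18.5, and the 3 later ages overlapped. The rise from E18.5 was 1.32 (SE 0.29) to P1, 1.42 to P3 and 1.24 to P7, with adjusted p = 0.00868, 0.00484 and 0.00751. The call at P1 ended without E18.5 replicate 2 (adjusted p = 0.0631) and without P1 replicate 2 (difference 0.93), and the call at P7 without E18.5 replicate 2 (adjusted p = 0.0579). The difference between P7 and P1 was -0.07 (95% interval -0.75 to 0.60).

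Irf9 and Stat2, both subunits of ISGF3, were called in no comparison. Irf9, at chr14:55603571-55610030 on the plus strand, was at 24.0 and 21.1 FPKM (E18.5), 24.7 and 27.2 (P1), 26.5 and 27.6 (P3) and 21.1 and 22.1 (P7). Its E18.5 and P7 libraries overlapped, and P1 and P3 overlapped above them. The difference at P7 was -0.06 (95% interval -0.35 to 0.24), which turned positive with TPM. Stat2, at chr10:128270559-128292849 on the plus strand, was at 9.99 and 7.30 FPKM (E18.5), 10.1 and 12.2 (P1), 10.9 and 13.5 (P3) and 11.3 and 12.6 (P7). Both E18.5 libraries lay below the 6 later ones. The P7 difference was 0.43 (adjusted p = 0.0828), with an upper 95% bound of 0.87, and the 3 postnatal ages overlapped.

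Counted together, 2 of the 9 genes were higher at P1 than at E18.5 (Ifit1 and Irf7) and 2 lower (Irf1 and Rsad2), where 10.1% of the 13979 genes tested were called higher and 6.06% lower. At P3, 2 were higher (Isg15 and Irf7) and 2 lower (Irf1 and Rsad2), beside 13% and 8.88% of all genes. At P7, 4 were higher (Isg15, Ifit1, Ifit3 and Irf7) and 1 lower (Rsad2), beside 15.4% and 12.3%. The median log2 difference of the 9 for P1, P3 and P7 was 0.20, 0.28 and 0.43, and that of all genes tested 0.15, 0.16 and 0.14. At each of P1, P3 and P7, both libraries lay above both E18.5 libraries for 5 of the 9 genes. Of all genes tested, 43.5%, 46.3% and 45.6% did so at P1, P3 and P7, so lying above E18.5 was common. Both libraries lay below for 3, 3 and 1 of the 9, beside 28.4% and 32.7% of all genes at P3 and P7. The 3 comparisons share the E18.5 libraries. Of all genes called, 62.5%, 59.4% and 55.7% were higher at P1, P3 and P7; TPM made this 77.3%, 74.4% and 68.1%, and size factors 50.7%, 49.9% and 49.2%. TPM moved the median of all genes up by 0.23, 0.24 and 0.25, and size factors moved it down by 0.12, 0.12 and 0.10; no called difference of the 9 genes changed sign under either.

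Between postnatal ages fewer differences were called. From P1 to P3, 0 of the 9 genes were called by limma in either direction, beside 0.0143% of all genes higher and 0% lower. In this comparison 0 of the 9 had an unadjusted p under 0.05 by limma, beside 1577 of 13979 genes. From P1 to P7, 4 were higher (Isg15, Ifit3, Irf1 and Rsad2) and 0 lower, beside 3.45% and 5.46% of all genes. From P3 to P7, 1 was higher (Rsad2) and 0 lower, beside 1.35% and 2.2%. Here 6 of the 9 had an unadjusted p under 0.05 by limma, beside 2589 of 13979 genes. The median of the 9 was 0.45 from P1 to P7 and 0.74 from P3 to P7, against -0.00 and -0.04 for all genes. Both P7 libraries lay above both P1 libraries for 6 of the 9 and below for 1, beside 30.9% and 31.8% of all genes. Against P3 they did so for 6 and 1, beside 24.6% and 31.7%. From P1 to P7, 10 of 10 cardiomyocyte markers were also called lower, and 4 of 8 fibroblast markers higher and 0 lower. The part of these markers was not tested.

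**Figure D2:**
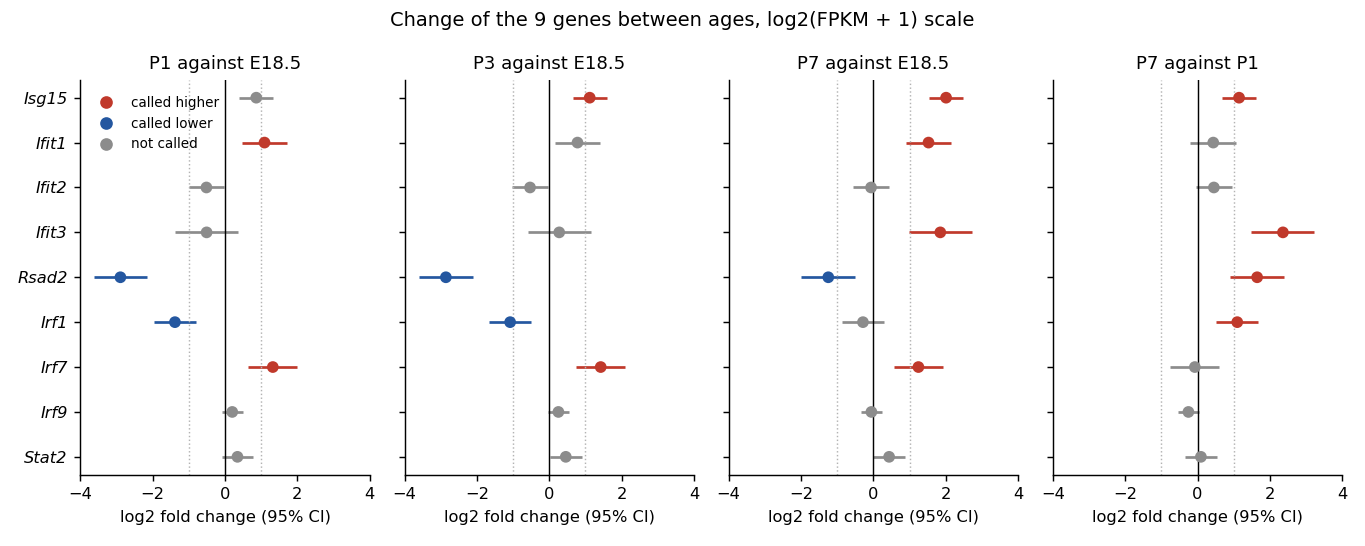
Log2 differences in FPKM + 1 of the 9 interferon response genes, in panels for P1, P3 and P7 against E18.5 and P7 against P1, with 95% confidence intervals, red for called higher, blue for called lower, grey for not called and dotted lines at the fold threshold of 1 in each direction. Isg15, Ifit1, Ifit3 and Irf7 lie at 1.24 to 2.01 for P7 against E18.5, and Rsad2 lies at -2.89, -2.86 and -1.25 in the panels against E18.5 and at 1.65 for P7 against P1.

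Most of the 9 genes moved together between the replicates of an age, and all 9 did so at E18.5. At E18.5 all 9 were lower in replicate 2 than in replicate 1, with a median log2 difference of -0.40, whereas 45.5% of all genes tested were higher in replicate 2. At P1 8 of 9 were higher in replicate 2 (median 0.26), at P3 2 of 9 (median -0.56) and at P7 8 of 9 (median 0.21), beside medians within 0.04 of 0 for all genes. Of all genes tested, 53.8%, 54.7% and 46.0% were higher in replicate 2 at P1, P3 and P7. The genes are therefore not 9 separate readings of an age, and E18.5 replicate 2, the lower of its pair for all 9, is among the libraries whose omission ended calls of Isg15, Ifit1 and Irf7.

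Across the 8 mouse libraries some of the genes varied together. The pairs with the highest and lowest r are given as a description, since libraries of an age share their age. Pearson's r of the log2 values was 0.912 for Irf1 with Rsad2, 0.892 for Rsad2 with Ifit2 and 0.866 for Irf1 with Ifit2, the genes that were lowest at P1 and P3. It was 0.925 for Ifit1 with Isg15, 0.825 for Irf7 with Ifit1 and 0.786 for Isg15 with Ifit3, the genes that were higher at P7. Irf1 with Irf9 gave -0.752 and Rsad2 with Irf7 gave -0.703. These pairs do not sort all 9 genes into groups. Ifit3 gave 0.291 with Irf7, but 0.588 with Ifit2 and 0.495 with Irf1. With the mean standardised pattern of the 9 genes, Ifit3 had an r of 0.914 and Isg15 of 0.828, and Rsad2 and Irf9 had 0.142 and -0.082. Among all genes tested, those most like this mean pattern over the 8 libraries were Herc6 (r = 0.955), Zfp26 (0.947), Sema4c (0.941), Ttc39c (0.936) and Plekha4 (0.934). Herc6, which codes for a ligase that attaches Isg15 to proteins in mouse, was at 3.09 and 2.20 FPKM at E18.5 and 4.30 and 5.23 at P7.

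The rest of the pathway was read from lists of known members, whose counts at P7 stand beside 15.4% of all genes called higher and 12.3% lower; 1 or 2 calls in a list of 5 are near those shares. For the ligands, 4 of 7 were in the table and none passed the filter: Ifnb1, interferon beta, lay between 0 and 1.21 FPKM, Ifna4 between 0 and 0.44, and Ifnl2 and Ifnl3 were listed at 0 in every library, while Ifna2, Ifna5 and Ifng were not analysed here. Of 5 receptor genes tested, 2 were higher at P7 than at E18.5, Ifnar2 (1.24) and Ifngr1 (1.11), with a list median of 0.64. Of 11 nucleic acid sensors and their adaptors, 7 were higher and 0 lower, with a median of 1.43 against 0.14 for all genes. The largest were Zbp1, a sensor of Z-form nucleic acid, which rose from 2.15 and 2.55 FPKM to 28.1 and 32.9 (log2 difference 3.23), Tmem173, which codes for the adaptor STING (2.19), and Dhx58, a helicase of the RNA sensing pathway (1.86).

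Of 27 antiviral effectors outside the 9 genes, 13 were higher at P7 and 1 lower, with a median of 0.90. Bst2, which tethers budding virus to the cell, was at 65.4 and 49.2 FPKM at E18.5 and 551 and 509 at P7 (3.20). Ifitm3, which blocks viral entry, was at 131 and 92.7 and then at 883 and 925 (3.02), and Oas1a, which makes the activator of RNase L, rose by 2.56. Mx1 was the gene that was lower (-1.22), and it was no longer called without P7 replicate 1. Of 17 genes of the gamma response and antigen presentation, 5 were higher and 0 lower (median 0.47), led by B2m (2.39), Iigp1 (1.73) and Tap1 (1.21); 3 were called without P7 replicate 2 and 3 with size factors. Of 5 other interferon regulatory factors 0 were called (median 0.09). Of 5 brakes on the pathway, Usp18, which removes Isg15 from proteins, was higher (1.67) and Ptpn6, a phosphatase, was lower (-1.01), the latter call ending without E18.5 replicate 2 or P7 replicate 2. The fall of the cardiomyocyte markers and the rise of the fibroblast markers ran beside these lists too, and their part was not tested.

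At P1 against E18.5 10.1% of all genes were called higher and 6.06% lower. The antiviral effectors had 10 of 27 higher and 2 lower, and the sensors and adaptors 2 of 11 higher, or 5 with TPM and 5 with limma-voom. The genes of the gamma response and antigen presentation had 1 of 17 higher and 4 lower, with a median of -0.22. No test between lists was made. From P1 to P7, where 3.45% of all genes were called higher and 5.46% lower, the same list had 6 of 17 higher and 0 lower (median 0.82), and the antiviral effectors 5 of 27 higher. The sensors and adaptors had 4 of 11 higher, a count that went as low as 1 with a library left out and fell by over 1.5 times without P1 replicate 1 or P7 replicate 2. These comparisons share the P1 libraries. Cardiomyocyte and fibroblast markers moved from P1 to P7 too, and their part was not tested.

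**Figure D3:**
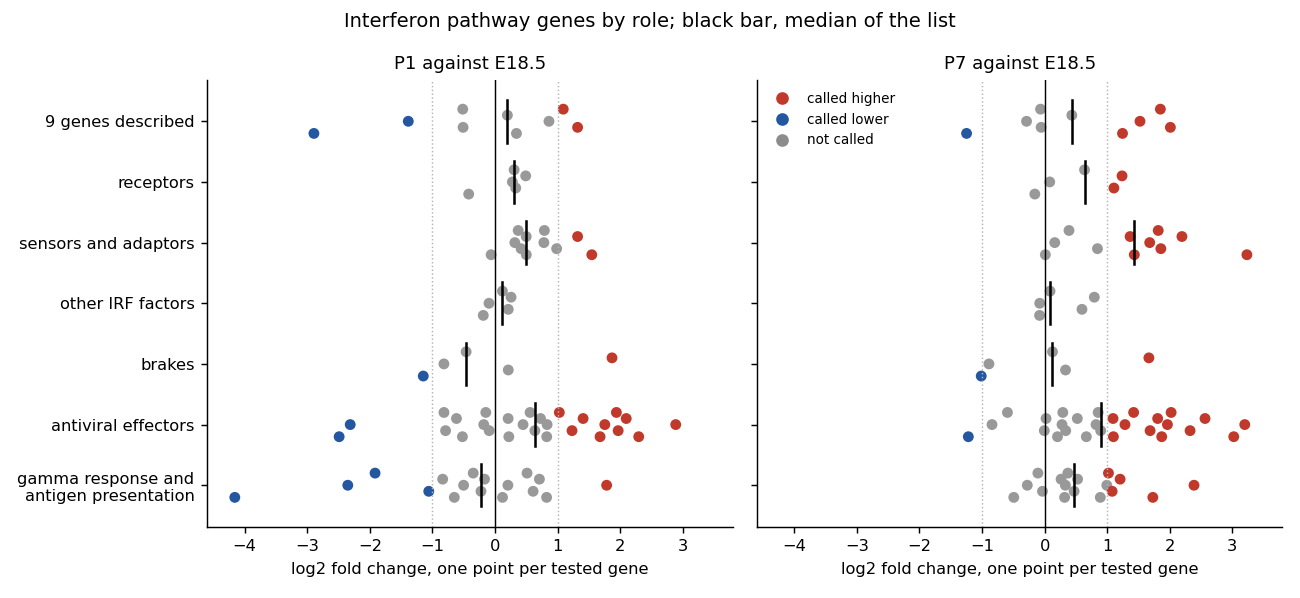
Log2 differences in FPKM + 1 for P1 (left) and P7 (right) against E18.5, for the tested genes of each pathway list and for the 9 interferon response genes, 1 point per gene in red (called higher), blue (called lower) or grey (not called), with a black bar at the list median and dotted lines at the fold threshold. The sensors and adaptors have a median of 1.43 at P7, and the genes of the gamma response and antigen presentation have one of -0.22 at P1 and 0.47 at P7.

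Close copies and overlapping genes limit some values. Ifit3b, a near-identical neighbour of Ifit3, was at 11.0 and 5.07 FPKM at E18.5 and 22.2 and 31.8 at P7, so reads of this pair could have been divided between them. Ifit1bl1, a relative of Ifit1, was at 6.26 and 3.31 FPKM at E18.5 and 0.30 to 0.87 after birth, and Ifit1bl2 at 0.34 to 0.78 throughout. The library kit does not keep the strand. Irf1 overlaps the antisense gene Gm17334 (0.00 to 1.01 FPKM), and Irf7 overlaps Phrf1 on the other strand (10.2 to 14.3 FPKM). Irf9 overlaps Rnf31 on the same strand (6.68 to 9.59 FPKM), where a kit that keeps the strand would not part them either. Reads from the shared stretches cannot be told apart by strand.

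Open chromatin was read from the ATAC-seq peaks, whose height is the fold enrichment of cut fragments over the local background as MACS2 gives it. A gene was given a peak when one lay within 2500 bp of an annotated start. The number of peaks called per library was 13149 and 14910 (E18.5), 29281 and 19753 (P1), 95257 and 52040 (P3) and 49113 and 35898 (P7), so that more genes have a peak at P3 and P7 for any set of genes. Both libraries had a peak at 3 of the 9 genes at E18.5 (Irf1, Irf7 and Stat2), beside 60.7% of 12468 protein-coding genes tested in the RNA-seq. The number was 0 at P1 beside 43.8%, 8 at P3 beside 92.6%, with Ifit1 missing, and 7 at P7 beside 88.3%, with Ifit1 and Ifit3 missing. None of the 9 had a peak in all 8 libraries, as 39.1% of those genes did, and none lacked one in every library, as 2.9% did. With each list held to its 13149 strongest peaks, the 9 genes had 5 and 2 (E18.5), 1 and 0 (P1), 3 and 3 (P3) and 3 and 4 (P7) with a peak in their libraries, while 37.6% to 71.6% of the coding genes had one.

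Stat2 had the highest peaks of the set, with a fold enrichment of 8.97 and 7.67 (E18.5), 9.55 in 1 library (P1), 11.61 and 12.64 (P3) and 9.14 and 9.18 (P7). Irf1 had peaks of 5.39 and 5.26 (E18.5), 3.54 in 1 library (P1), 7.65 and 7.93 (P3) and 5.39 and 6.41 (P7). Both genes lacked a peak in P1 replicate 2 alone, and the peaks covered the gamma activated site letters of Irf1 in 7 libraries and the response element letters of Stat2 in 6. Peak height and RNA level came from different libraries: Stat2 was called in no RNA comparison, and Irf1 RNA was lower at P3 than at E18.5 while its peaks were highest at P3. That is not particular to Irf1: the peaks of Stat2, Irf9, Ifit3, Rsad2 and Isg15 were also highest at P3, where the peak lists were longest. Those of Ifit2 and Irf7 overlapped with other ages, and peak heights over all genes were not compared.

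Of the effectors, Ifit2 had a peak in 6 libraries, with a highest fold enrichment of 6.07 in E18.5 replicate 1, 5.15 in P1 replicate 1, 4.72 and 5.63 at P3, and 5.14 and 4.24 at P7. Ifit3 had a peak of 4.14 in 1 library at P1, of 7.21 and 6.91 at P3 and of 5.71 in 1 library at P7, and 4 libraries covered its 2 matches. Rsad2 had peaks of 5.34 and 4.98 at P3 and 4.01 and 3.79 at P7, none at E18.5, when its RNA was highest, and 3.54 in 1 library at P1. Ifit1 had a peak in P3 replicate 1 (3.99) and P7 replicate 2 (3.85), both over its own start and over its 2 response element matches, and 0 and 36 bp from the start of Ifit1bl2. The peaks of Isg15, 5.74 and 4.5 at P3 and 4.11 and 4.16 at P7, lay before its start, their nearest edges at positions -2222 to -1763 bp, and 0 to 102 bp from the start of AW011738, and in 0 libraries did a peak lie over its response element letters. Irf9 had a peak of 5.3 in E18.5 replicate 1, none at P1, and peaks of 8.62 and 8.41 at P3 and 4.2 and 5.41 at P7, and Irf7 had peaks at more than 1 of its starts.

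**Figure D4:**
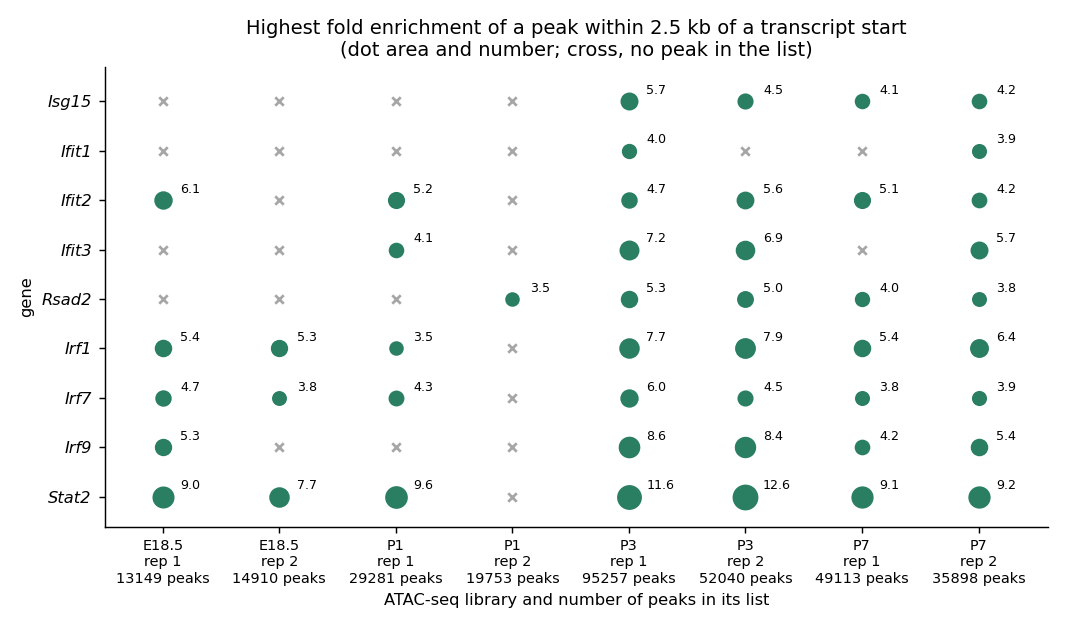
Highest fold enrichment of an ATAC-seq peak within 2500 bp of a start, for the 9 interferon response genes in each of the 8 mouse libraries, drawn as dot area with its number, and a cross where there was no peak. Stat2 reaches 12.64 at P3, and Isg15 has no peak at E18.5 or P1.

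In rat cardiomyocytes the same genes were read with and without TSA. None of the 6 genes tested was called by limma, beside 1.81% of 13625 genes called higher and 0.316% lower. An unadjusted p under 0.05 was found for 1 of 6, and for 2699 of the 13625 genes. The 1 of 6 was Ifit2, at 5.75, 5.57 and 7.70 FPKM with DMSO and 4.99, 4.72 and 3.61 with TSA. Its difference was -0.43 (95% interval -0.83 to -0.03, adjusted p = 0.222). Its groups did not overlap, and 10.1% of all genes tested also lay lower in every TSA library than in every DMSO library. Isg15 was at 1.17, 1.74 and 1.57 FPKM with DMSO and 2.81, 2.81 and 1.65 with TSA, with overlap, and its difference of 0.44 had an interval from -0.03 to 0.92.

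The transcription factors overlapped between the treatments. Irf1 was at 11.0, 11.0 and 9.40 FPKM with DMSO and 12.8, 11.0 and 8.58 with TSA, a difference of 0.03 (95% interval -0.35 to 0.41) whose sign turned with TPM and with size factors. Irf7 was at 4.32, 3.36 and 2.14 and then 6.31, 3.39 and 2.41, with an interval from -0.56 to 0.96. Irf9 was at 14.4, 16.2 and 11.2 and then 15.4, 12.3 and 8.95 (interval -0.70 to 0.32), and Stat2 at 16.8, 17.6 and 11.6 and then 16.8, 15.3 and 13.4 (interval -0.42 to 0.41). Ifit1, Ifit3 and Rsad2 did not pass the filter: they were between 0.03 and 0.87, 0.06 and 0.70, and 0.08 and 0.44 FPKM over the 6 libraries. Of these, Rsad2 lay at 0.13, 0.08 and 0.14 FPKM with DMSO and 0.44, 0.23 and 0.20 with TSA, without overlap, and was not tested at this level. Of the genes that were tested, 17.1% lay higher in every TSA library than in every DMSO library. The summed macrophage markers were 1001, 1019 and 483 FPKM with DMSO and 534, 455 and 402 with TSA, most of it Lyz2 (777, 779 and 390.0, then 399, 340.1 and 304). C1qb went the other way, from 5.16, 6.62 and 2.79 to 10.8, 9.04 and 10.9 FPKM. Of these 7 markers 0 were called, but 0 to 4 were called lower with 1 of the 6 libraries left out. Their part in these values was not tested.

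In the rat lists, 2 of 21 antiviral effectors were higher with TSA and 0 lower, beside 1.81% and 0.316% of all genes, with a list median of 0.13 against 0.03 for all genes. Bst2 was at 4.72, 3.17 and 1.61 FPKM with DMSO and 20.0, 18.3 and 15.6 with TSA (log2 difference 2.25, adjusted p = 0.0127). Its groups did not overlap, as for 17.1% of all genes tested that lay higher in every TSA library. Isg20, an exonuclease, was at 4.75, 5.53 and 3.15 and then 10.8, 12.2 and 9.63 (1.14, adjusted p = 0.0304). With any 1 of the 6 libraries left out, 0 or 1 gene of this list was called. No gene was called by limma among 6 receptors, 8 sensors and adaptors, 5 other regulatory factors, 5 brakes and 10 genes of the gamma response and antigen presentation. Among the alternatives, 1 of the brakes was called lower with the replicate block and 1 with size factors. With 1 library left out, at most 1 brake was called lower and at most 1 other regulatory factor higher.

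**Figure D5:**
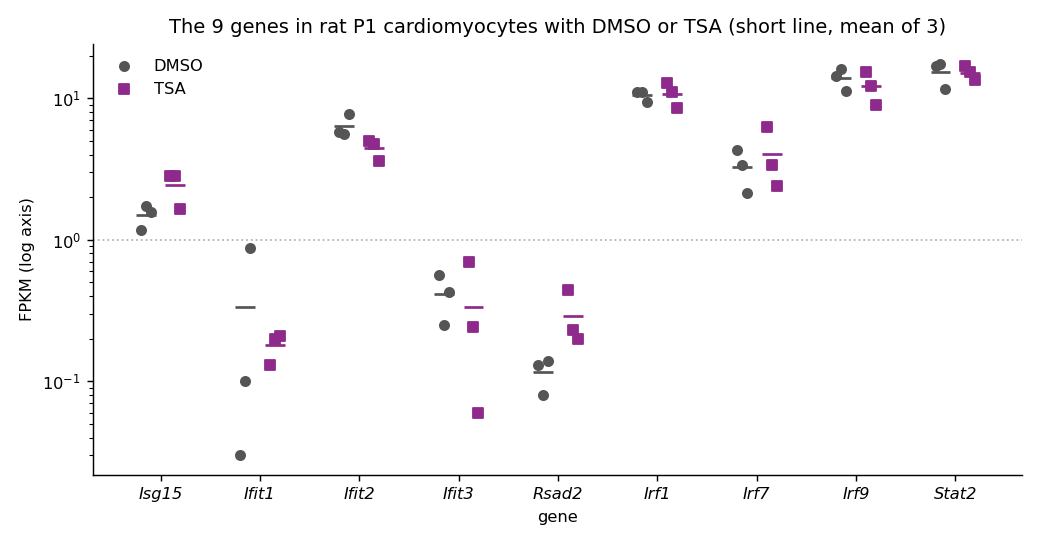
FPKM of the 9 interferon response genes in rat P1 cardiomyocytes, on a log axis, with 1 point per library for the 3 DMSO and the 3 TSA libraries, short lines at the means and a dotted line at the filter of 1 FPKM. Ifit2 is the gene above the filter whose groups do not overlap, 5.57 to 7.70 against 3.61 to 4.99, and Ifit1, Ifit3 and Rsad2 lie under the line.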

How the data were processed

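Mouse RNA-seq at 4 ages and rat RNA-seq with DMSO or TSA were aligned by the authors with HISAT2 2.1.0 and assembled with StringTie 1.3.5, per the submitters' processing notes, which also name cutadapt, Bowtie2, Picard and MACS2 for the ATAC-seq. The deposited transcript tables give FPKM, TPM and coverage per transcript, on mm10 for mouse. Transcript FPKM were summed per gene, and coverage and length gave estimated reads for 1 alternative. The deposited peak lists, 1 per library, give a fold enrichment, a −log10 p and q and a score per peak; the fold enrichment was used as it stood, and the score ranked the peaks. The 6 H3K27ac HiChIP samples were not analysed here. Of the pathway lists, 1 is not reported here.

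Genes with at least 1 FPKM in 2 mouse or 3 rat libraries were tested with limma 3.58.1 (R 4.3.3) on log2(FPKM + 1), with the trend option and Benjamini-Hochberg adjustment over all genes tested. The authors tested read counts with edgeR, which FPKM do not allow. The 4 ages shared 1 fit, and the scripts were tested on simulated data. Tables were made with Python 3.11.15, numpy 2.4.6 and pandas 2.3.3. The 9 genes were chosen by name, and the genes and lists were chosen with earlier results of these data known. All 9 genes were named; of a pathway list up to 3 called genes per direction at P7 against E18.5 and with TSA against DMSO; and the 5 genes most like the mean pattern. Rat libraries of the same number deviated together from their group means (r = 0.224, 0.194 and 0.346), so their numbers may mark pairs. Rat libraries of different number gave r from -0.270 to 0.167, so that the lowest same-number value was close to this range. The rat differences, intervals and adjusted p given come from a fit without pairs, and only the replicate block used them. The summed 10 cardiomyocyte markers were highest in replicate 3: 12163, 13360 and 21478 FPKM with DMSO and 12926, 11331 and 31932 with TSA. Atp2a2 and Pln went the other way with DMSO, lowest in replicate 3. Alternatives were a pseudocount of 0.1, no filter, a mean of at least 5 FPKM, TPM, size factors, limma-voom on estimated reads, a replicate block, a fit of the 2 ages compared, each library left out, and for peaks a distance of 1000 bp, the peak midpoint, the peaks above the median score of each list and an equal number of peaks.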

Additional observations from a re-analysis of the deposited data

How the results depend on the processing

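Of 684 re-computed differences behind 44 values for the 9 genes, 632 kept their direction and side of the threshold, 28 lost the call, 5 gained one and 19 changed sign, none of the latter from a called difference. The replicate block changed 0 of the 44 calls, for example leaving Isg15 at 2.01 at P7 against E18.5. Deviations of mouse libraries of the same number correlated at -0.096 to 0.171. With 2 libraries per age this cannot show whether their numbers mark pairs, and the labels do not say. With TPM the P7 difference became 0.19 for Ifit2 and 0.20 for Irf9, and that of rat Irf1 -0.038, or -0.019 with size factors. With 1 library left out, where the lone library of an age is assumed to vary like the rest, ranges crossed 0 for Ifit3 at P3 (-0.22 to 0.77), Ifit2 at P7 (-0.35 to 0.22), Irf9 at P7 (-0.15 to 0.034), Irf7 (-0.47 to 0.32) and Stat2 (-0.027 to 0.21) from P1 to P7, and rat Irf1 (-0.092 to 0.17), Irf7 (-0.11 to 0.44) and Stat2 (-0.18 to 0.10). The 2 genes higher at P1 became 1 without the filter, 1 with size factors and 0 to 3 with a library left out (0 without E18.5 replicate 2 or P1 replicate 2). At P3 the 2 higher became 1 with size factors and 1 to 3 with a library left out, and the 2 lower 1 with TPM and 1 to 2. At P7 the 1 lower became 0 to 1 (0 without E18.5 replicate 1 or P7 replicate 1). From P1 to P7 the 4 higher became 2 without the filter and 1 to 4 with a library left out (1 without P7 replicate 2), and from P3 to P7 the 1 higher became 0 without the filter, 2 in a fit of both ages alone and 0 to 1. Genes with a peak in both libraries went at E18.5 from 3 to 1 among peaks above the median score and to 3 to 5 with 1 library, at P1 from 0 to 1 to 5, at P3 from 8 to 3 with equal numbers of peaks and 5 above the median score, and at P7 from 7 to 2 and 3. The causes were not tested. With 2 libraries per age, a gene that was not called may still differ by any amount within its interval.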

Other observations

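Genes outside the 9 were also lower at P1 than at E18.5; those given here were singled out after their values were seen. Cxcl10, a chemokine of the gamma response, was at 195 and 172 FPKM (E18.5), 6.28 and 13.7 (P1), 7.95 and 6.08 (P3) and 104 and 219 (P7). The P1 and P3 libraries overlapped and lay below all others. Its log2 difference was -4.16 at P1 against E18.5 and 3.88 at P7 against P1, both called by limma. Gbp2, a guanylate-binding protein, was at 29.7 and 24.1 FPKM (E18.5), 5.03 and 3.90 (P1), 6.59 and 7.35 (P3) and 30.1 and 38.3 (P7), and was called lower at P1 (-2.35) and higher from P1 to P7 (2.69). Cmpk2, a nucleotide kinase and the genomic neighbour of Rsad2, was at 30.2 and 19.3 FPKM (E18.5), 3.06 and 3.94 (P1), 6.02 and 4.36 (P3) and 11.6 and 14.6 (P7), and was called lower at P1 (-2.49) and higher from P1 to P7 (1.65), with a P7 difference from E18.5 of -0.84 that was not called. Gbp5 (-1.92), Cd274 (-1.06) and Mx1 (-2.31) were also called lower at P1. Gbp5 (1.81) and Mx1 (1.10) were called higher from P1 to P7 and Cd274 (0.57) was not, and Mx1 was still called lower at P7 than at E18.5 (-1.22).

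Usp18, which removes Isg15 from proteins, rose at P1 instead. Usp18 was at 12.7 and 11.5 FPKM (E18.5), 40.9 and 53.5 (P1), 48.6 and 34.3 (P3) and 39.0 and 42.1 (P7), with the 3 postnatal ages overlapping above E18.5. The summed cell type markers moved over the same ages, and their part in these values was not tested.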
